A study of Mus musculus with 98 samples.

Results

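The dystrophin complex was followed through 7 genes: Dmd (dystrophin), Utrn (utrophin), Dtna (alpha-dystrobrevin), Dag1 (dystroglycan), Sgca, Sgcb and Sgcd (alpha-, beta- and delta-sarcoglycan). They were taken by name from the authors' expression table and splicing tables over all groups of libraries. They are 7 of 24526 genes with a transcript level in every library, and 325 of 117460 splicing events carry one of the 7 names. None of the 36 exons in the authors' separate exon table belongs to them. All 7 genes passed the filter on low levels in every comparison.

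Bulk RNA sequencing covered 98 libraries in 24 groups of mouse gastrocnemius or quadriceps muscle. HSALR mice, homozygous for a human skeletal actin transgene with an expanded CUG repeat, are a model of myotonic dystrophy in which the actin gene's own regulatory region restricts the repeat RNA largely to muscle fibres, and FVB/NJ mice are the wild type. The treatment was a (CAG)7 phosphorodiamidate morpholino oligomer, either unconjugated (PMO, 30 mg/kg) or conjugated to EEV4, a delivery group (EEV4-PMO, 15 or 30 mg/kg), and control mice received PBS. The question was how dose, conjugation, time after dosing and the age of the RNA molecules bear on muscle transcripts. At 7 days the gastrocnemius groups were FVB with PBS (n = 4), HSALR with PBS (n = 8), and HSALR with PMO at 30 mg/kg or with either dose of EEV4-PMO (n = 4 each). HSALR mice were also followed over time after the lower dose of EEV4-PMO, with gastrocnemius taken at 1, 2 and 4 days, and quadriceps taken on those days and at 7 days, beside FVB and HSALR mice with PBS at 4 days (n = 4 each), so that every treated time was set against the same 4 PBS libraries. Newly made (nascent) RNA, captured through ethynyl uridine, and total RNA came from quadriceps of HSALR mice 1 or 2 days after the lower dose (n = 3 each) and 4 days after PBS (n = 4), isolated with another kit than all other RNA. At 3 months, quadriceps came from HSALR mice given the lower dose (n = 6) or PBS (n = 4).

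Dystrophin is a long rod that ties the actin cytoskeleton under the muscle membrane to dystroglycan. Dystroglycan is made as 1 protein that is cut into a membrane-spanning part and an outer part, and the outer part, once glycosylated, binds laminin in the basement membrane. The sarcoglycans form a small membrane complex that holds dystroglycan in place, and alpha-dystrobrevin binds dystrophin inside the cell and brings in syntrophins and nitric oxide synthase. Utrophin is the close relative of dystrophin that is found mainly at the neuromuscular junction of adult fibres. Loss of dystrophin or of a sarcoglycan causes muscular dystrophy, and the DMD and DTNA transcripts are among those known to be spliced differently in human myotonic dystrophy muscle.

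Skeletal fibre transcripts were abundant in every library, with muscle creatine kinase Ckm at 6542 to 35521 TPM (a level corrected for transcript length and relative to all RNA of the library) and Acta1 at 16582 or more. In bulk muscle, fewer cells of a type and less RNA per cell cannot be told apart. The sum of 6 lymphocyte markers was 372 TPM in gastrocnemius replicate 2 at 4 days of EEV4-PMO and between 0 and 2.54 TPM in each of the other libraries, so the ranges of level over groups, the 4-day Dtna difference and the likeness to other genes are also given without it. The labels give each library its own replicate number but do not say whether the muscles came from separate mice, so p-values measure the spread between libraries.

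Sgca and Dag1 had the highest transcript levels of the 7 genes and Utrn the lowest. All levels in this paragraph are TPM, which are corrected for length. Over the 88 libraries of total RNA, Utrn ranged from 19.5 to 68.2 with a median of 28.2, Sgcb from 54.1 to 99.6 with a median of 74.7, and Dtna from 55.1 to 120 with a median of 88.3. Dmd ranged from 69.9 to 139 with a median of 103, and Sgcd from 70.2 to 154 with a median of 110. Dag1 ranged from 99.3 to 199 with a median of 142, and Sgca from 122 to 266 with a median of 190. Utrn had the lowest mean in 24 of 24 groups, and Sgca the highest in 20 groups. In the other 4, the FVB quadriceps and the 3 nascent groups, Dag1 stood first. All 10 gastrocnemius groups had the same order of means: Sgca, Dag1, Dmd, Sgcd, Dtna, Sgcb and Utrn.

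Between the 21 groups of total RNA the means of each gene stayed within a 1.95-fold range. Over all libraries Utrn spanned 1.95-fold, from 21.3 ± 1.29 (SD, n = 4) in quadriceps at 7 days of EEV4-PMO to 41.5 ± 18.02 (SD, n = 4) in gastrocnemius at 4 days. Without replicate 2 of the latter group its mean was 32.6 ± 3.36 (SD, n = 3), and Utrn spanned 1.58-fold, up to 33.6 ± 1.47 (SD, n = 4) in gastrocnemius with PBS at 4 days. The ranges of the other 6 genes were the same with and without that library. Dtna spanned 1.74-fold, from 63.1 ± 11.5 (SD, n = 4) in quadriceps at 4 days of EEV4-PMO to 110.0 ± 11.4 (SD, n = 4) in gastrocnemius at 1 day. Dmd spanned 1.59-fold, from 79.9 ± 7.83 (SD, n = 4) in FVB quadriceps to 127 ± 6.36 (SD, n = 4) in HSALR quadriceps with PBS at 3 months. Dag1 had the narrowest range of group means, at 1.40-fold, while Sgca spanned 1.45-fold, Sgcd 1.57-fold and Sgcb 1.60-fold. When the 21 groups were put in order of their means, the libraries of neighbouring groups overlapped in 20 of 20 pairs for Utrn, Dtna, Dag1, Sgca and Sgcd, and 1 pair was separate for Dmd and 1 for Sgcb. Sorting by mean puts groups of like level side by side, so this overlap does not tell whether groups further apart in the order differ.

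**Figure D1:**
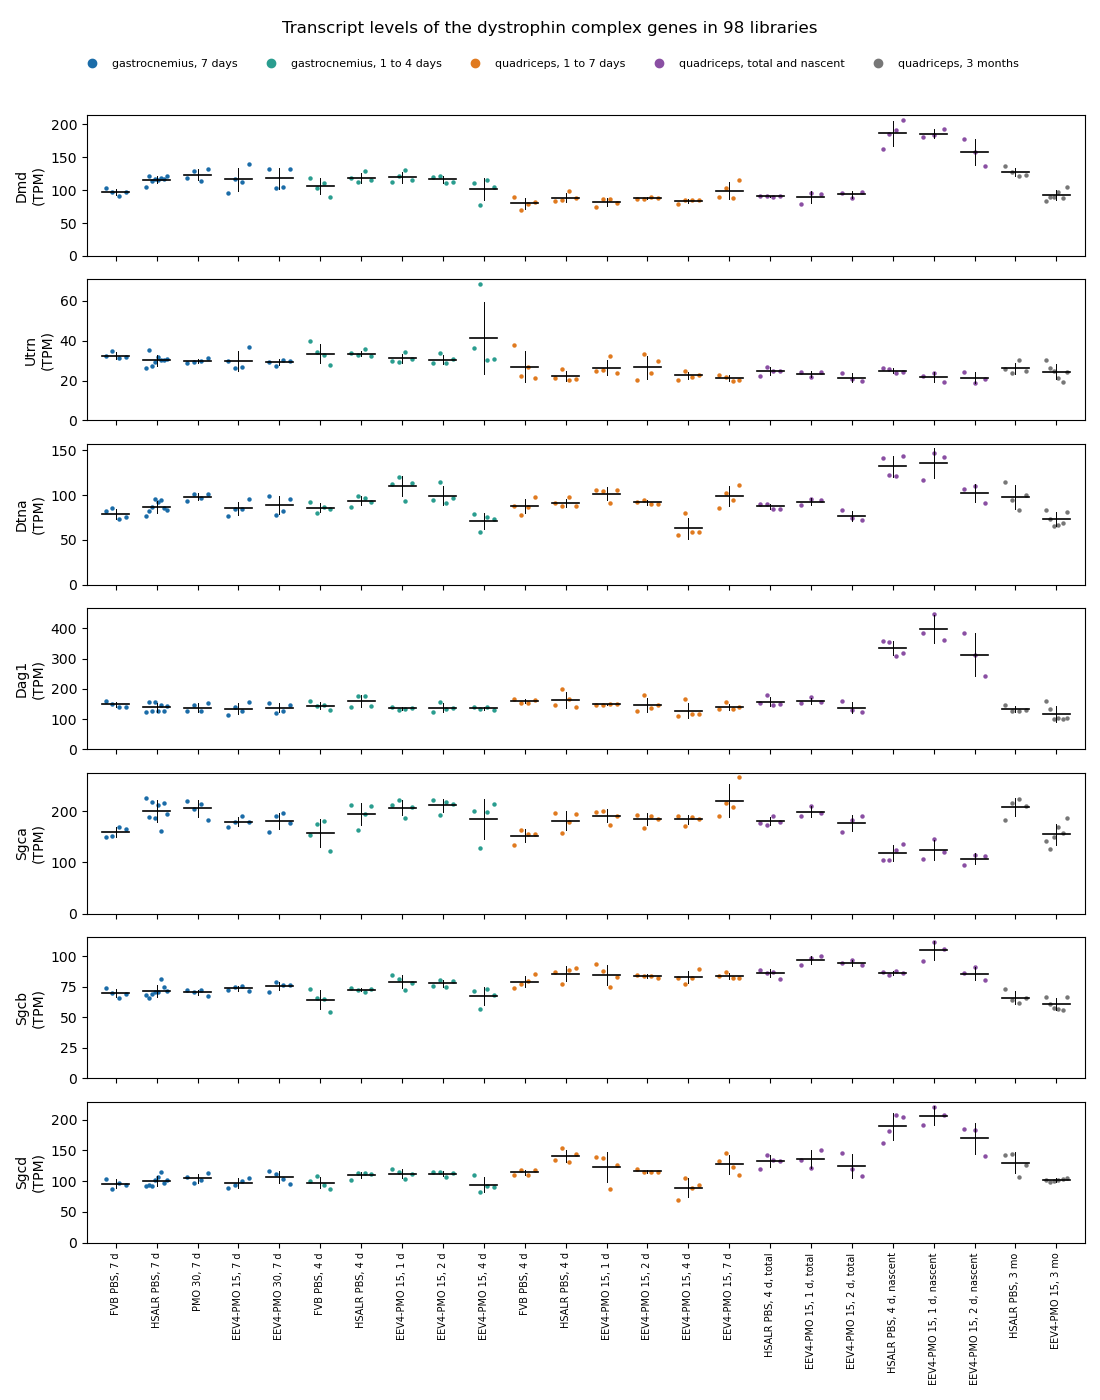
Transcript level (TPM, linear axis from 0) of each of the 7 genes in every library, by group along the horizontal axis. Points are libraries, horizontal bars are group means and vertical lines are ± 1 SD; Utrn lies at the bottom of the scale in all 24 groups, with 1 library at 68.2 TPM in gastrocnemius at 4 days.

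In gastrocnemius at 7 days, Dmd and Sgca were lower in wild-type FVB than in HSALR mice given PBS, and the other 5 genes did not pass the test. Dmd measured 103, 96.9, 90.8 and 97.7 TPM in the 4 FVB libraries, and from 105 to 122, with a median of 117, in the 8 HSALR libraries. All 4 FVB libraries lay below all 8 HSALR libraries. On the log2(TPM + 1) scale Dmd was -0.26 in FVB relative to HSALR (95% confidence interval -0.42 to -0.09; adjusted p = 0.026, limma with Benjamini-Hochberg adjustment over all genes). Sgca measured 149, 152, 169.8 and 165 TPM in FVB, and from 161 to 225, with a median of 203, in HSALR. The lowest HSALR library fell among the FVB libraries, and the others were higher than all of them. The difference in Sgca was -0.33 (interval -0.48 to -0.17; adjusted p = 0.0036). These 2 of 7 members compare with 20.6% of all genes tested. The Dmd call was lost without FVB replicate 2, 3 or 4, while that of Sgca was kept in every fit that left out a library. Beside these values, 8 of 10 endothelial markers were higher in FVB, with sums of 416 to 475 TPM against 251 to 354, and 3 of 6 macrophage markers were lower, with sums of 22.2 to 36.6 against 37.1 to 84.8. Of 6 synapse and denervation markers 3 were lower, with sums of 81.5 to 97.1 against 103 to 169, and of 5 regenerating fibre markers 2 were lower, with sums of 48.3 to 53.6 against 64.1 to 103. Of 10 muscle fibre markers 4 were higher and 1 lower. Their part in the result was not tested.

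Neither 4-day comparison of FVB with HSALR called a member (0 of 7 in gastrocnemius, beside 8.26% of all genes, and 0 of 7 in quadriceps, beside 13.7%). In gastrocnemius, Sgca measured 153, 175, 179.9 and 122 TPM in FVB and 211, 164, 194 and 209 in HSALR. The groups overlapped, and the difference of -0.31 (interval -0.61 to -0.01) had an adjusted p of 0.22. Dmd differed by -0.17 there (interval -0.39 to 0.05). In quadriceps, Sgca measured 133, 164, 155 and 156 in FVB and 197, 158, 179 and 194 in HSALR, a difference of -0.25 (adjusted p = 0.069). Sgcd, the delta subunit, measured 111, 119, 109.8 and 118 in FVB and 135, 154, 132 and 144 in HSALR. The FVB libraries all lay below the HSALR libraries, but the difference of -0.30 (interval -0.56 to -0.04) had an adjusted p of 0.12. Dmd differed by -0.15 in quadriceps (interval -0.32 to 0.02). The estimates for Dmd and Sgca were thus below 0 in all 3 wild-type comparisons, and they passed the test in 1. Utrn was at 37.8, 22.4, 26.9 and 21.1 in FVB quadriceps against 21.3, 25.9, 20.4 and 21.02 in HSALR; the FVB library at 37.8 also had 5184 TPM of summed fat markers against 511 to 855 in the others.

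At 7 days no member passed the test after either compound in HSALR gastrocnemius. The count was 0 of 7 for PMO at 30 mg/kg, for which 0% of all genes were called, 0 of 7 for EEV4-PMO at 15 mg/kg, beside 11.1%, and 0 of 7 for EEV4-PMO at 30 mg/kg, beside 15%. Dmd measured 118, 129.6, 114 and 132 TPM after PMO, 96.1, 117, 112 and 139 after EEV4-PMO at 15 mg/kg and 132, 103, 105 and 133 at 30 mg/kg. These libraries overlapped the range of the 8 PBS libraries. Relative to PBS the Dmd difference was -0.01 at 15 mg/kg (interval -0.17 to 0.16) and 0.02 at 30 mg/kg (interval -0.15 to 0.18). Sgca measured 169, 179.7, 190.1 and 179 at 15 mg/kg and 160.1, 191, 196 and 178 at 30 mg/kg, and all 8 libraries lay under the PBS median of 203. The Sgca differences were -0.15 (adjusted p = 0.22) and -0.14 (adjusted p = 0.23), both on the log2 scale, and PMO gave 0.04 (interval -0.12 to 0.20). Dtna was 0.17 after PMO (interval 0.03 to 0.32; adjusted p = 0.56). For Utrn the interval of the difference from PBS was -0.18 to 0.13 at 15 mg/kg and -0.20 to 0.11 at 30 mg/kg.

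The treated groups were also set against each other and against wild type. The higher against the lower dose of EEV4-PMO called 0 of 7 members (0.0432% of all genes), EEV4-PMO against PMO at the matched 30 mg/kg called 0 of 7 (11.7%), and EEV4-PMO at 30 mg/kg against FVB called 0 of 7 (12.7%). Between the matched doses, the conjugate differed from PMO by -0.07 for Dmd (interval -0.27 to 0.12), -0.18 for Sgca (interval -0.36 to 0.00) and -0.03 for Utrn (interval -0.21 to 0.15). Each of these intervals includes 0, and its ends give the sizes of difference that the 4 libraries a group leave possible. Dmd in the 4 libraries at 30 mg/kg, listed above, was higher than in all 4 FVB libraries; the difference was 0.27 (interval 0.08 to 0.46; adjusted p = 0.056).

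In the gastrocnemius time course no member passed the test at 1 day (0 of 7, beside 1.38% of all genes), 2 days (0 of 7, beside 1.07%) or 4 days (0 of 7, beside 0.518%) of EEV4-PMO. Dtna measured 87.1, 98.6, 96.1 and 92.4 TPM with PBS, 113, 119.8, 93.6 and 114 at 1 day and 78.6, 58.6, 75.8 and 73.3 at 4 days. The 4-day libraries all lay below the PBS libraries, and at 1 day 3 of 4 lay above them. The Dtna difference was 0.23 at 1 day (adjusted p = 0.33) and -0.39 at 4 days (interval -0.59 to -0.19; adjusted p = 0.087). Without replicate 2 at 4 days, the library with lymphocyte transcripts, the latter became -0.30 with an adjusted p of 0.14. Utrn measured 36.5, 68.2, 30.4 and 31.0 at 4 days and 33.6, 32.7, 35.6 and 32.3 with PBS. The value of 68.2 is that same library, which also had the lowest Dmd, Dtna and Sgca of its group, at 77.6, 58.6 and 128 TPM, and a fat marker sum of 4148 TPM against 371 to 576 in the other 3. Its part in the 4-day values beyond leaving it out was not tested. Dag1 measured 141, 177, 177 and 144 with PBS and 140.4, 134, 139 and 129.8 at 4 days, a difference of -0.23 with an adjusted p of 0.26.

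In quadriceps, Dtna and Sgcd fell at 4 days of EEV4-PMO and overlapped the PBS values at 7 days. Dtna measured 91.0, 88.0, 98.1 and 88.0 TPM with PBS, 55.1, 80.2, 58.6 and 58.3 at 4 days and 85.6, 102, 94.9 and 111 at 7 days. All 4 libraries of 4 days lay below all PBS libraries, while those of 7 days overlapped them. The difference from PBS was -0.54 at 4 days (interval -0.74 to -0.34; adjusted p = 0.00099) and 0.10 at 7 days (interval -0.10 to 0.31; adjusted p = 0.52). Sgcd measured 135, 154, 132 and 144 with PBS, 70.2, 106, 88.3 and 94.0 at 4 days and 133, 145, 123 and 109 at 7 days. Again the 4-day libraries were all lower than the PBS libraries and the 7-day libraries overlapped them. The Sgcd difference was -0.66 at 4 days (interval -0.92 to -0.40; adjusted p = 0.0015) and -0.15 at 7 days (adjusted p = 0.47). Both 4-day calls were kept in each of the 24 fits that left out a library.

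The 2 of 7 members called at 4 days stand beside 9.1% of all genes. At 1 day 0 of 7 were called (beside 0.615%), at 2 days 0 of 7 (beside 1.94%) and at 7 days 0 of 7 (beside 13.9%). At 1 and 2 days Dtna measured 105, 104, 91.5 and 105 and 91.7, 94.9, 90.3 and 89.7, and Sgcd measured 139.8, 137, 87.7 and 126 and 119, 115, 116 and 115. The 4 Sgcd libraries of 2 days were all below the PBS libraries, with a difference of -0.28 and an adjusted p of 0.31. Dag1 at 4 days measured 111, 165, 118 and 118 against 146, 199, 165 and 141 with PBS. Its library at 165 overlapped the PBS libraries and the other 3 did not. The difference was -0.35 (interval -0.60 to -0.11; adjusted p = 0.067), and it passed the test after median rescaling (-0.37, adjusted p = 0.016). Dmd differed by -0.09 at 4 days (interval -0.26 to 0.08), Sgca by 0.02 (interval -0.17 to 0.21), Sgcb by -0.05 (interval -0.19 to 0.09) and Utrn by 0.03 (interval -0.29 to 0.35). Sgca at 7 days measured 191, 216, 208 and 266, 0.27 from PBS with an adjusted p of 0.051, which became 0.044 when only genes of a mean TPM of at least 5 were tested. Beside the fall at 4 days, the summed markers of regenerating fibres (5 genes, with Myog and Myod1 among them) stood at 178 to 301 TPM against 81.2 to 169 with PBS, and those of synapse and denervation at 168 to 186 against 86.2 to 141; their part in the result was not tested. In gastrocnemius, where no member passed the test at 4 days, the regenerating sum was 117 to 173 against 72.0 to 183. Whether the 4-day differences in the 2 muscles differ from each other was not tested.

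**Figure D2:**
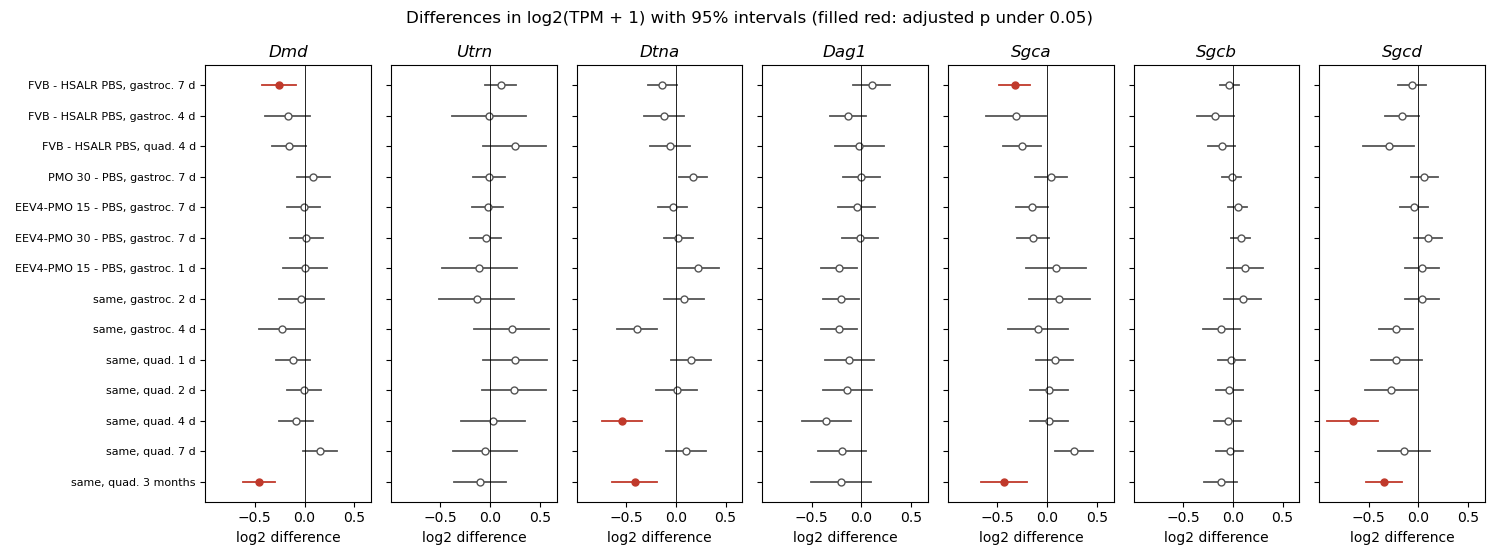
Difference in log2(TPM + 1) for each of the 7 genes (panels) in each comparison (rows), with the first named group minus the second, as points with 95% confidence intervals. Filled red points passed an adjusted p under 0.05; in quadriceps time points these are Dtna (-0.54) and Sgcd (-0.66) at 4 days.

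Nascent RNA of PBS quadriceps held more Dmd and Dag1, relative to all RNA in the library, than total RNA of the same group, and less Sgca. Dmd measured 91.0, 91.2, 89.3 and 91.7 TPM in total and 162, 185, 192 and 207 in nascent RNA. Dag1 measured 154, 179, 145 and 151 in total and 358, 355, 309 and 319.9 in nascent RNA. For both genes every nascent library was above every total library, and the differences were 1.03 for Dmd (interval 0.84 to 1.21; adjusted p = 9.9e-09) and 1.09 for Dag1 (interval 0.83 to 1.35; adjusted p = 3.4e-07). Sgca measured 177, 172, 191 and 179 in total and 105, 105, 124 and 137 in nascent RNA. Here every nascent library was below every total library, at -0.62 (interval -0.84 to -0.40; adjusted p = 3.7e-05). Dtna was 0.59 and Sgcd 0.50, both past the test, while Utrn (0.01, interval -0.18 to 0.20) and Sgcb (0.01, interval -0.12 to 0.13) were not. These 5 of 7 members (4 higher, 1 lower) compare with 79.3% of all genes, whose median difference was 0.73. After each library was rescaled to the same median, 7 of 7 members were called, 2 higher (Dmd and Dag1) and 5 lower, and the signs of Dtna (-0.24), Sgcd (-0.32), Utrn (-0.82) and Sgcb (-0.82) turned. The direction held under both scalings for Dmd, Dag1 and Sgca, at a rescaled 0.20 (adjusted p = 0.027), 0.26 (adjusted p = 0.010) and -1.44 (adjusted p = 8.6e-09).

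After EEV4-PMO, total RNA of this cohort called no member at 1 day (0 of 7, beside 0.0144% of all genes) or 2 days (0 of 7, beside 0.59%). In nascent RNA, 1 of 7 was called at 1 day (1.05% of all genes) and 1 of 7 at 2 days (6.26%). Sgcb rose at 1 day, from 86.7, 84.5, 87.6 and 85.8 TPM with PBS to 96.3, 112 and 106. The treated libraries lay above the PBS libraries and the difference was 0.28 (interval 0.14 to 0.41; adjusted p = 0.047), a call lost in 16 of 20 fits that left out a library. At 2 days Sgcb measured 85.9, 91.2 and 80.1, among the PBS values. Dtna fell at 2 days, from 141, 123, 121 and 143 to 106, 110.5 and 91.2. All 3 treated libraries were below the PBS libraries, with a difference of -0.36 (interval -0.56 to -0.16; adjusted p = 0.031); this call was lost without treated replicate 3 or PBS replicate 1 or 4. At 1 day nascent Dtna measured 116, 147 and 143. Both calls were lost after median rescaling (Sgcb 0.21, adjusted p = 0.11; Dtna -0.22, adjusted p = 0.10) and when only these groups were fitted. The test of whether nascent and total RNA responded differently called 0 of 7 at 1 day (0.0072% of all genes) and 0 of 7 at 2 days (0%), with Dtna at -0.17 at 2 days (interval -0.45 to 0.11).

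At 3 months, Dmd, Dtna, Sgca and Sgcd were lower in quadriceps of HSALR mice treated with EEV4-PMO than with PBS. Dmd measured 136, 127, 122 and 123 TPM with PBS, and from 83.6 to 105, with a median of 90.02, in the 6 treated libraries. Sgcd measured 143, 145, 108 and 126 with PBS, and from 98.5 to 106, with a median of 102, after treatment. For both genes all treated libraries lay below all PBS libraries. Dmd differed by -0.46 (interval -0.62 to -0.30; adjusted p = 0.028) and Sgcd by -0.34 (interval -0.53 to -0.16; adjusted p = 0.038). Dtna measured 114, 93.9, 83.3 and 99.7 with PBS, and from 65.2 to 83.7, with a median of 71.1, after treatment. Sgca measured 182, 216, 224 and 210.0 with PBS, and from 127 to 186, with a median of 153, after treatment. For both genes the highest treated library overlapped the lowest PBS library, and the differences were -0.41 (adjusted p = 0.041) and -0.43 (adjusted p = 0.040). Utrn measured 25.6, 23.9, 30.4 and 24.7 with PBS and had a median of 24.6 after treatment, a difference of -0.10 (interval -0.36 to 0.16).

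These 4 of 7 members compare with 7.65% of all genes at 3 months. Of the 1037 genes called, 1024 were lower after treatment, and the median difference over all genes was -0.17. After median rescaling the differences were -0.28 for Dmd, -0.23 for Dtna, -0.25 for Sgca and -0.16 for Sgcd, no member was called, and 5 genes were called in all. Without any 1 of treated replicates 2, 3, 4 and 5 or PBS replicates 1, 2 and 4, no member was called either. The direction of the 4 genes was the same in each of those fits.

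The splicing table measures inclusion as percent spliced in (PSI, from 0, always skipped, to 1, always included). For a pair of mutually exclusive exons the PSI sets 1 exon of the pair against the other. Of the 325 events of the 7 genes, 254 were skipped exons, 4 were alternative splice sites, 67 were pairs of mutually exclusive exons, and 0 were retained introns. Dmd held 219 events, Utrn 28, Dtna 23, Dag1 18, Sgca 16, Sgcd 16 and Sgcb 5. The events other than mutually exclusive pairs fell on 115 distinct exons, so 1 exon can count several times. By event, 244 of 254 skipped exons had a median PSI of 0.95 or more, 5 had 0.05 or less, and 5 lay between. Among those in between were 3 events of Dmd with values in 8 or fewer libraries, 1 of Dtna and 1 of Dag1. The 5 events of exons almost always skipped were 3 of noncoding exons of Dtna, 1 of a noncoding exon of Dag1 and 1 of Sgca with values in 8 libraries. The like shares over all skipped-exon events of the series were not counted, so these are no trait of the complex alone. Read depth per event was not used here, so no counting interval can be given for a PSI.

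**Figure D3:**
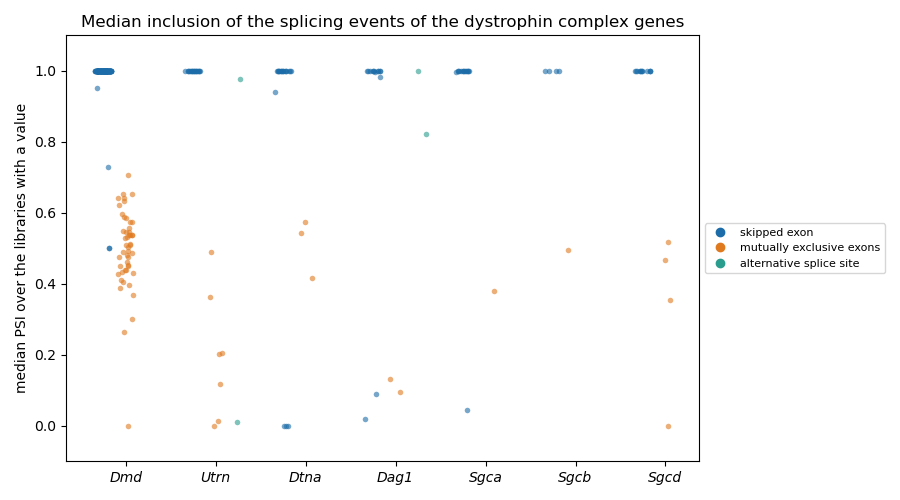
Median PSI of each of the 325 events over the libraries with a value, by gene along the horizontal axis and by event type in colour. Skipped exons crowd at the top, with 244 of 254 at 0.95 or more, and the mutually exclusive pairs lie lower.

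Short coding exons near the 3′ ends of dystrophin and utrophin are shown here because exons 71 and 78 of dystrophin are known alternative exons, and because they show how alike both relatives are. Dmd exon 71 (transcript Dmd-203, chrX:85144911-85144949, plus strand, GRCm38, coding) and Utrn exon 67 (transcript Utrn-205, chr10:12415451-12415489, minus strand, coding) are both 39 bases long. They are written 5′ to 3′ from the GENCODE vM21 transcripts, and capitals mark the 24 of 39 positions (61.5%) at which both have the same base.
Dmd exon 71: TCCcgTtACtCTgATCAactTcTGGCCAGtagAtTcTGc
Utrn exon 67: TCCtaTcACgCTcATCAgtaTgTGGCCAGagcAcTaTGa
Dmd exon 78 (chrX:85197504-85197535, plus strand, coding) is 32 bases long, which is not a multiple of 3, so that its inclusion sets the reading frame of the last exon. Its capitals mark the usual binding motif of muscleblind proteins, which has 4 forms. These were searched for as TGCT or as TGCC, and, with another first base, as CGCT or as CGCC, on the transcript's strand only.
Dmd exon 78: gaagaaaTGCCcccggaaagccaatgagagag
Of 150 internal exons of 32 bases in annotated coding transcripts, 38 (25.3%) hold 1 of the 4 motifs, and of 420 such exons of 39 bases 133 (31.7%) do, so the match is a description and not a site.

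All 3 exons were mostly included in every group. Group means of Dmd exon 78 ran from 0.900 to 0.979 in the event with a value in all 98 libraries, and those of Dmd exon 71 from 0.931 to 1.00. The lowest mean of exon 71 was in nascent RNA of PBS quadriceps, whose libraries measured 0.875, 0.961, 0.887 and 1.00, against 1.00, 0.985, 0.993 and 0.996 in total RNA. The nascent values overlapped those of total RNA at their upper end. Utrn exon 67 had a median of 1.00 over libraries and a lowest group mean of 0.905. In exon 78, FVB gastrocnemius at 7 days measured 0.967 ± 0.012 (SD, n = 4) and HSALR with PBS 0.953 ± 0.014 (SD, n = 8), a PSI difference of 0.014. Dtna had 1 coding exon whose median PSI lay under 0.95, exon 13 of transcript Dtna-203 (78 bases, coding, chr18:23610464-23610541). It measured 1.00, 0.929, 0.99 and 0.967 with PBS in quadriceps and 0.742, 0.914, 0.941 and 0.903 at 4 days of EEV4-PMO. The 4-day library at 0.742 stood lowest, and the difference of -0.097 had an adjusted p of 0.63. In gastrocnemius at 7 days the exon measured 0.945 ± 0.075 (SD, n = 4) in FVB and 0.956 ± 0.038 (SD, n = 8) in HSALR with PBS.

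Between wild-type and HSALR muscle, 1 event of the 7 genes was called in 3 comparisons. In gastrocnemius at 7 days 0 of 181 events were called (0.555% of all events), in gastrocnemius at 4 days 1 of 204 (0.33%), and in quadriceps at 4 days 0 of 202 (0.449%). The 1 event joins Sgca exons 7 and 6 (transcript Sgca-202, chr11:94970671-94970833 and chr11:94971241-94971439, minus strand, GRCm38, both coding) as a mutually exclusive pair. Neither the coordinates nor the table say which exon of such a pair the PSI counts. It measured 0.295, 0.337, 0.291 and 0.194 in FVB and 0.388, 0.369, 0.401 and 0.392 in HSALR with PBS. All FVB libraries lay below the HSALR libraries, with a difference of -0.108 (adjusted p = 0.030, limma on linear PSI). The call was lost in 7 of 20 fits that left out a library, on the logit scale (adjusted p = 0.056) and when only these 2 groups were fitted (adjusted p = 0.73). In the 7-day cohort the same event measured 0.399 ± 0.031 (SD, n = 4) in FVB and 0.392 ± 0.037 (SD, n = 8) in HSALR, with overlap, and in quadriceps 0.362 ± 0.040 (SD, n = 4) in FVB and 0.351 ± 0.025 (SD, n = 4) in HSALR. Both exons had a median PSI of 1.00 in the events that score each of them alone. In Utrn, the longer form of exon 2 (chr10:12861568-12861735 on the minus strand, 30 bases longer than its alternative) measured 0.971, 0.978, 0.867 and 0.747 in FVB gastrocnemius at 7 days, and from 0.931 to 1.00, with a median of 1.00, in HSALR. The groups overlapped, and the difference of -0.088 had an adjusted p of 0.53.

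No event of the 7 genes was called after treatment at 7 days in gastrocnemius. The counts were 0 of 181 for PMO (0% of all events), EEV4-PMO at 15 mg/kg (0.309%) and EEV4-PMO at 30 mg/kg (0.457%), and 0 of 181 between the doses (0.0182%), against PMO (0.377%) and against FVB (0.0702%). The largest difference was in an alternative 5′ splice site of a noncoding 5′ exon of Dag1 (exon 2 of Dag1-207, chr9:108253009-108253157, minus strand), where the long form of 149 bases competes with one of 57 bases (chr9:108253101-108253157). It measured from 0.862 to 1.00, with a median of 0.933, with PBS, 0.676, 0.734, 1.00 and 1.00 after PMO, 0.745, 0.793, 0.749 and 0.737 at 15 mg/kg and 0.682, 0.824, 0.556 and 0.762 at 30 mg/kg of EEV4-PMO. All 8 EEV4-PMO libraries lay below all 8 PBS libraries, and the PMO libraries lay on both sides. The difference from PBS was -0.186 at 15 mg/kg (adjusted p = 0.30), and the higher dose gave -0.236 (adjusted p = 0.075). The second became a call (adjusted p = 0.044) when events with 1 single value in all libraries were left out of the test. FVB measured 0.822, 0.822, 1.00 and 0.879, with a mean between the PBS and EEV4-PMO means. The same choice of site was also scored in an event joined to a different exon. That event had a median PSI of 1.00 over 88 libraries, and a lowest value of 0.781.

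In the other cohorts no difference at this Dag1 site passed the test, and the values below are those of the event first described. In quadriceps it measured 0.718, 0.523, 0.751 and 0.637 with PBS at 4 days and 0.616, 0.816, 1.00 and 0.948 in FVB, a difference of 0.188 (adjusted p = 0.58). The means after EEV4-PMO were above the PBS mean there, with 0.759 on the fourth day and 0.837 to 0.874 at the other times against 0.657. In gastrocnemius at 4 days it measured 0.815 ± 0.116 (SD, n = 4) with PBS and 0.780 after EEV4-PMO. In nascent RNA the mean was 0.884 with PBS, 0.826 at 1 day and 0.724 at 2 days of EEV4-PMO (adjusted p = 0.52 for the latter), and in total RNA of that cohort 0.793, 0.814 and 0.721. At 3 months it was 0.922 after treatment against 0.980 with PBS. The means after EEV4-PMO thus lay below PBS in some groups outside the 7-day cohort and above it in others. The exon to which this site is joined in the event (exon 3 of Dag1-206, chr9:108242889-108243023, noncoding) had a mean PSI of 0.190 at 30 mg/kg against 0.0578 with PBS at 7 days (adjusted p = 0.20), and 0.243 against 0.0548 at 3 months (adjusted p = 0.76). Neither passed the test.

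Dmd exons 37 and 40 (chrX:83908381-83908551 and chrX:83927845-83927997, plus strand, coding), tabulated as a mutually exclusive pair, code for parts of the rod. The event measured from 0.565 to 0.660, with a median of 0.600, with PBS, 0.696, 0.666, 0.730 and 0.720 at 15 mg/kg and 0.714, 0.671, 0.679 and 0.704 at 30 mg/kg of EEV4-PMO. All EEV4-PMO libraries lay above all PBS libraries. The differences were 0.096 (adjusted p = 0.042) and 0.085 (adjusted p = 0.086), both under the PSI difference of 0.1 that a call needs. Both exons had a median PSI of 1.00 in the events that score each of them alone. The sequences of both exons are shown because this event also separates nascent from total RNA below; capitals mark the muscleblind motif as above, which 89.4% of internal exons of 171 bases and 87.7% of those of 153 bases hold.
Dmd exon 37: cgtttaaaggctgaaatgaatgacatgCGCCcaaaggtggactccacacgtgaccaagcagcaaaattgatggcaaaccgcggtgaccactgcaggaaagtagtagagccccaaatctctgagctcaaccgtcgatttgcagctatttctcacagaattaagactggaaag
Dmd exon 40: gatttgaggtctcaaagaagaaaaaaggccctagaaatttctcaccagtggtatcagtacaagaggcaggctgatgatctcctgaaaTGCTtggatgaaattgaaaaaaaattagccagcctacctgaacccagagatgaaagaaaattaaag
Their lengths, 171 and 153 bases, are both multiples of 3.

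In the time courses 0 of 204 gastrocnemius events were called at 1 day (0% of all events), 2 days (0%) and 4 days (0.00667%). In quadriceps 0 of 202 were called at 1 day (0%), 2 days (0.0145%), 4 days (0.15%) and 7 days (0.256%), although Dtna and Sgcd levels fell at 4 days. At 3 months 0 of 80 events were called (0%). In the cohort of nascent RNA, 0 of 181 were called after treatment in total RNA at 1 day (0.00138%) and 2 days (0.0151%), and in nascent RNA at 1 day (0.0785%) and 2 days (0.123%), and 0 of 181 responded differently in nascent and total RNA at 1 day (0.00275%) or 2 days (0%).

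Nascent RNA differed from total RNA in 7 of 181 events (1.75% of all events), all mutually exclusive pairs, 5 of them in Dmd. Dmd held 108 of the 181 events tested, and exon 37 is part of more than 1 of its pairs. The pair of Dmd exons 37 and 40 measured 0.669, 0.740, 0.649 and 0.666 in total and 0.523, 0.451, 0.465 and 0.491 in nascent RNA. The pair of Dmd exons 12 and 13 (chrX:83678279-83678429 and chrX:83691768-83691887) measured 0.674, 0.680, 0.679 and 0.627 in total and 0.517, 0.485, 0.477 and 0.467 in nascent RNA. In both, all nascent libraries lay below all total libraries, by -0.199 (adjusted p = 0.0044) and -0.178 (adjusted p = 0.012). The pair of Dmd exons 37 and 38 differed by -0.164, that of exons 64 and 65 by 0.178 and that of exons 42 and 44 by 0.113. Exons 3 and 2 of Sgcd (chr11:47195031-47195132 and chr11:47355185-47355373, transcript Sgcd-201) measured 0.343, 0.339, 0.306 and 0.294 in total and 0.471, 0.452, 0.462 and 0.445 in nascent RNA. The nascent libraries were all higher, by 0.137 (adjusted p = 0.0010). The Sgca pair of exons 7 and 6 measured 0.382, 0.385, 0.383 and 0.403 in total and 0.438, 0.585, 0.537 and 0.525 in nascent RNA, a difference of 0.133 (adjusted p = 0.031). The nascent mean lay nearer to 0.5 than the total mean in 6 of the 7 pairs, all but that of Dmd exons 42 and 44. Each exon of these 7 pairs had a median PSI of 1.00 in events that score it alone, apart from 1 event of Dmd exon 42 with values in 8 libraries and a median of 0.5. With both exons of a pair nearly always included, the pair values are not read here as a choice between them. The calls for Sgca and for Dmd exons 42 and 44 did not hold when only the 2 groups were fitted (adjusted p = 0.090 and 0.076).

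**Figure D4:**
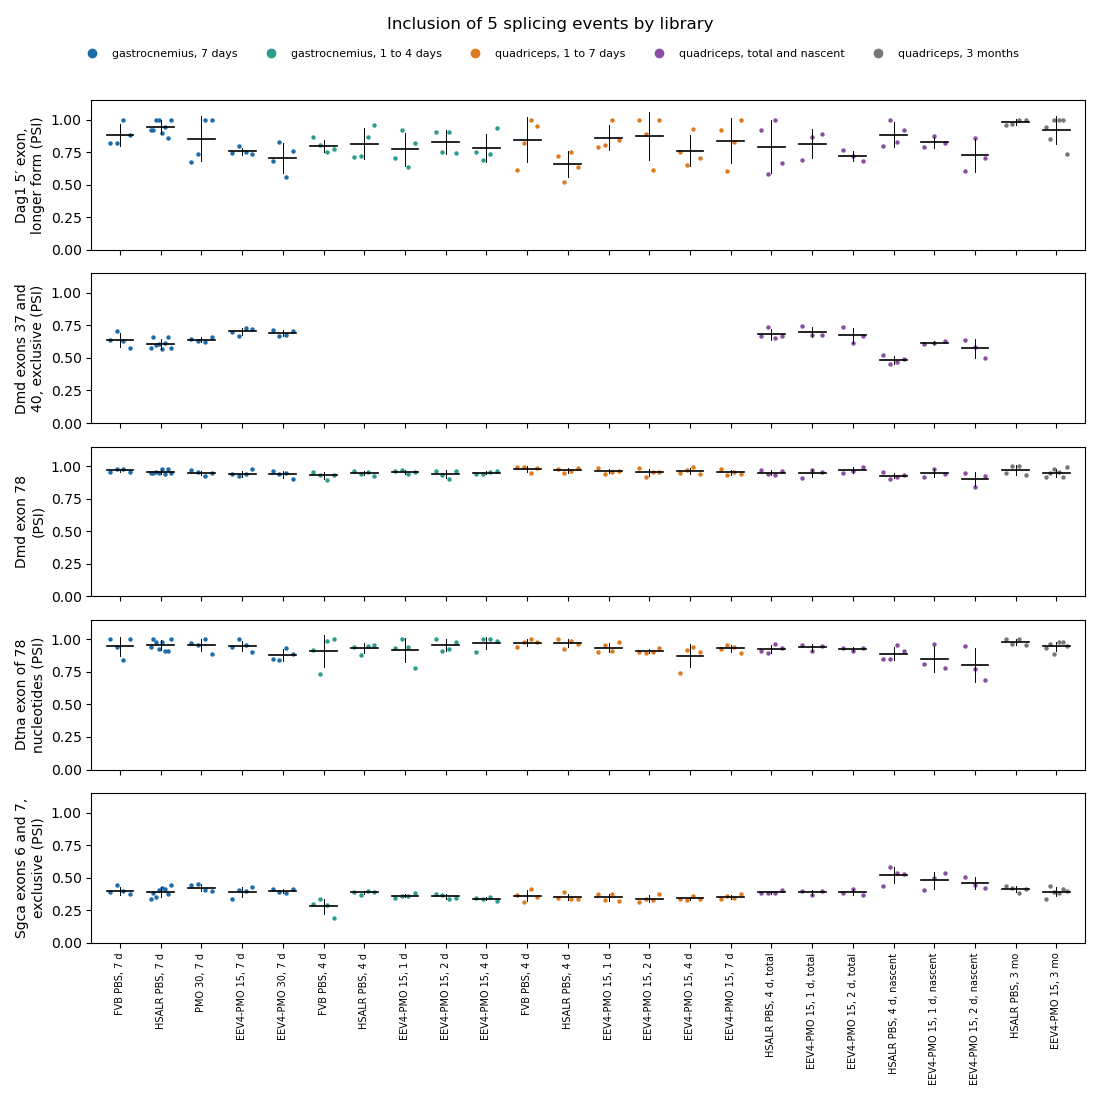
PSI (0 to 1) of 5 events named in the text, in every library by group. Points are libraries, horizontal bars are means and vertical lines ± 1 SD. The Dag1 splice site, joined to a mostly skipped exon, is lower in both EEV4-PMO groups than in PBS at 7 days in gastrocnemius. The Dmd pair of exons 37 and 40 is lower in nascent than in total RNA and has no value in the groups left blank.

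Around the 7 genes, 47 other genes of the complex, its matrix ligands, its membrane and cytoskeleton partners and the enzymes that glycosylate dystroglycan were counted, of which 44 were tested in the cohorts up to 7 days and 43 in the others. In FVB against HSALR with PBS, 5 were higher and 10 lower in gastrocnemius at 7 days, 1 higher and 6 lower at 4 days, and 2 higher and 11 lower in quadriceps. The median difference of the list was -0.07, -0.13 and -0.21 in these comparisons, beside -0.003, -0.10 and 0.02 over all genes. After treatment in gastrocnemius at 7 days, 0 were called with PMO, 2 were higher and 5 lower at 15 mg/kg of EEV4-PMO, and 3 higher and 9 lower at 30 mg/kg. In the gastrocnemius time course 0 were called at 1 day and at 2 days, and 1 was higher and 0 lower at 4 days. In quadriceps 0 were called at 1 day, 2 were lower at 2 days, 2 higher and 11 lower at 4 days, and 3 higher and 13 lower at 7 days. At 3 months 10 were lower and 0 higher, and over all genes 1024 of the 1037 called were lower as well. The shares of all genes called are those given above for each comparison.

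Sntb1 codes for beta-1-syntrophin, an adaptor bound to dystrophin and dystrobrevin. It was lower in FVB than in HSALR, and lower at some of the times after EEV4-PMO. In gastrocnemius at 7 days it measured 11.2, 12.5, 8.46 and 8.60 TPM in FVB, and from 25.1 to 49.9, with a median of 38.97, in HSALR with PBS. It measured 21.8, 20.1, 20.6 and 25.3 at 15 mg/kg and 14.8, 12.02, 14.4 and 19.2 at 30 mg/kg of EEV4-PMO, and 42.1, 66.98, 37.5 and 101 after PMO. The FVB libraries were all below the HSALR PBS libraries, those at 30 mg/kg lay below the PBS libraries too, 1 library at 15 mg/kg overlapped them, and those after PMO lay among or above them. The differences from HSALR with PBS were -1.83 in FVB (adjusted p = 1.3e-06), -0.78 at 15 mg/kg (adjusted p = 0.016), -1.30 at 30 mg/kg (adjusted p = 0.00017) and 0.57 after PMO (adjusted p = 0.51). In quadriceps it measured 19.9, 19.6, 25.2 and 22.9 with PBS, 11.2, 8.40, 6.82 and 3.87 at 4 days and 6.93, 7.61, 10.6 and 9.30 at 7 days of EEV4-PMO. All libraries of 4 and 7 days lay below the PBS libraries, by -1.49 (adjusted p = 0.0042) and -1.26 (adjusted p = 0.011). In nascent RNA at 2 days it was -1.27 (adjusted p = 0.010), and at 3 months -1.44 (adjusted p = 0.029), a call lost in 8 of 10 fits that left out a library.

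Nos1, the neuronal nitric oxide synthase that syntrophin anchors, was lower at 7 days of EEV4-PMO in both muscles and lower in FVB in quadriceps. In gastrocnemius it measured from 18.6 to 31.7, with a median of 22.4, TPM with PBS, 13.1, 13.8, 14.6 and 15.4 at 15 mg/kg and 19.5, 11.5, 10.3 and 13.7 at 30 mg/kg, and 23.4, 19.4, 20.9 and 19.8 in FVB. The libraries at 15 mg/kg were all below the PBS libraries, and FVB overlapped them. In quadriceps it measured 36.7, 41.8, 46.5 and 36.5 with PBS, 27.6, 21.4, 28.6 and 25.7 in FVB, 25.9, 24.5, 26.9 and 22.5 at 2 days, 24.8, 29.3, 38.2 and 44.7 at 4 days and 16.2, 14.5, 13.4 and 14.1 at 7 days. The FVB, 2-day and 7-day libraries all lay below the PBS libraries, and those of 4 days overlapped them. The differences were -0.65 at 15 mg/kg (adjusted p = 0.0025), -0.74 at 30 mg/kg (adjusted p = 0.00055) and -1.41 in quadriceps at 7 days (adjusted p = 2.7e-06). Quadriceps gave -0.67 at 2 days (adjusted p = 0.017; lost without treated replicate 4 or PBS replicate 3) and -0.26 at 4 days (adjusted p = 0.32). In FVB the difference was -0.63 in quadriceps (adjusted p = 0.0053), -0.14 in gastrocnemius at 7 days (adjusted p = 0.53) and 0.11 there at 4 days (adjusted p = 0.73).

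**Figure D5:**
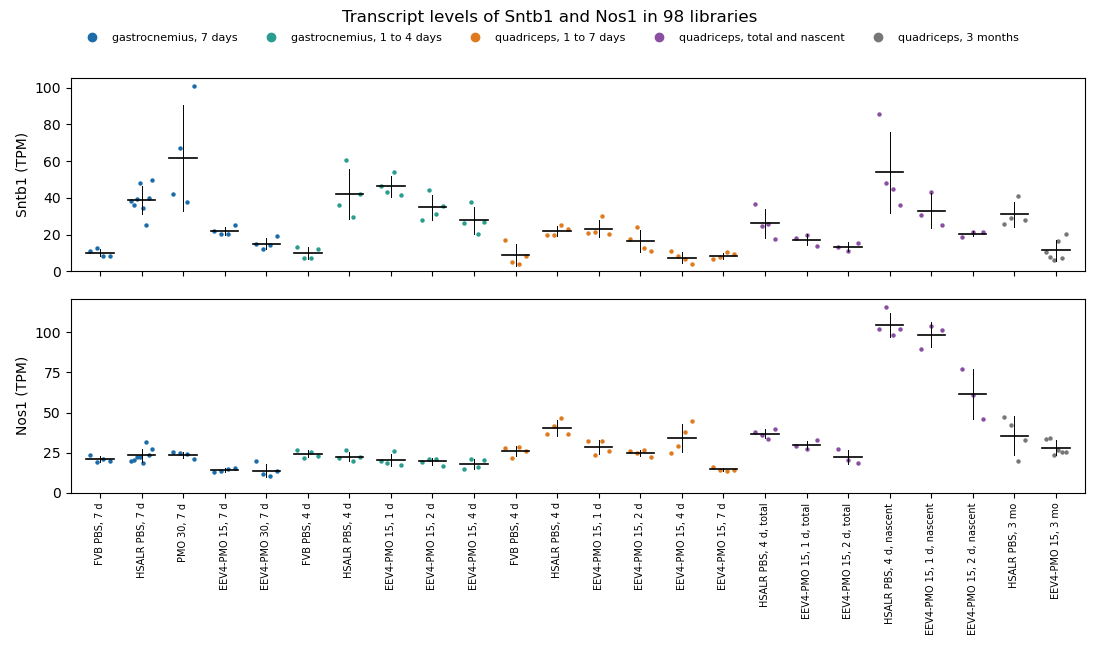
Transcript level (TPM, linear axis from 0) of Sntb1 and Nos1 in every library by group. Points are libraries, horizontal bars are means and vertical lines ± 1 SD; Sntb1 lies between 8.46 and 12.5 TPM in FVB gastrocnemius at 7 days and between 25.1 and 49.9 in HSALR with PBS.

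Other partners differed by genotype or treatment in some of the comparisons, and not every comparison is named. Itgb1, the beta-1 subunit of the laminin-binding integrin, was -0.65 in FVB gastrocnemius at 7 days, -0.66 at 4 days and -0.74 in quadriceps, and -0.40 after 30 mg/kg of EEV4-PMO, each past the test. Ank3, an ankyrin that binds dystrophin, was -0.41, -0.50 and -0.53 in the 3 FVB comparisons, all past the test. Krt8, a keratin that links the contractile apparatus to dystrophin at the membrane, was -2.24, -3.01 and -1.76 in FVB, and rose in quadriceps by 2.10 at 4 days and 2.42 at 7 days of EEV4-PMO; its PBS quadriceps libraries stood at only 2.65, 3.46, 2.28 and 3.97 TPM. Krt19, the partner of Krt8, was 1.18 in FVB quadriceps, at low mean levels of 3.42 TPM against 0.896 in HSALR with PBS. That call was lost without PBS replicate 4. B3galnt2, a dystroglycan glycosyltransferase, was 0.41 in FVB gastrocnemius at 7 days and 0.47 and 0.53 after EEV4-PMO at 15 and 30 mg/kg, past the test in each. The collagen VI genes Col6a1 and Col6a2 were -0.60 and -0.75 at 30 mg/kg. The mean of Col6a2 there was 42.7 TPM, against 73.8 in HSALR with PBS and 70.5 in FVB. In gastrocnemius at 4 days of EEV4-PMO Col6a2 was higher instead, at 89.5 to 109 TPM against 57.0 to 86.1 with PBS. In quadriceps at 7 days Col6a2 was -1.72. Beside the latter, the summed fibroblast markers were 417 to 669 TPM at 7 days against 1069 to 1699 with PBS; their part in it was not tested. Lama2 (laminin alpha-2) was -0.63 in FVB quadriceps and -0.74 there at 7 days of EEV4-PMO, both past the test. In gastrocnemius at 7 days Lama2 overlapped, at 32.4 to 46.1 TPM in FVB and 36.4 to 50.4 in HSALR with PBS. Cav3 (caveolin-3) was -0.44 in FVB quadriceps and -0.26 at 30 mg/kg, both past the test. The Cav3 call at 30 mg/kg was lost without treated replicate 1 or 4.

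Genes with a like pattern were looked for over the 16 groups of total RNA other than HSALR with PBS, each taken as its mean difference in log2(TPM + 1) from the HSALR PBS group of its cohort. Of 9914 genes compared, the nearest were Nme2 for Dmd (Pearson r = 0.893), Cnot3 for Utrn (0.939), Ppp2r3a for Dtna (0.913), Tmem201 for Dag1 (0.920), Lmo7 for Sgca (0.935), Mbtps2 for Sgcb (0.890) and Pradc1 for Sgcd (0.908). Among the members, the closest pairs were Dmd with Sgca (0.781) and Dtna with Sgcd (0.734), and the nearest member to Utrn was Dag1 (0.159). Without gastrocnemius replicate 2 at 4 days these r values ranged from 0.885 to 0.932 for the 7 nearest genes, and Utrn with Dag1 gave 0.278. Then Npr1 stood nearest to Utrn (0.939) and Ddx19a to Dmd (0.903), while the nearest gene was the same for the other 5. These are descriptions over groups that share control libraries.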

How the data were processed

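Per the submitters' processing notes, reads were handled with cutadapt, STAR and kallisto on GRCm38/mm10; versions are not given in the sources used here. The authors deposited transcript levels per gene as TPM, and inclusion per splicing event as a fraction (PSI) in a table named for rMATS. No read counts were used, so depth per library is unknown. log2(TPM + 1), a scale that understates changes of low genes, was fitted with limma 3.58.1 in R 4.3.3, with 1 coefficient per group and a prior variance that follows the mean level. P-values were adjusted by Benjamini-Hochberg over all genes of mean TPM at least 1 in the cohort, and a gene was called at an adjusted p under 0.05. PSI was fitted in the same way over the events measured in all libraries of a cohort, and a call also needed a difference of at least 0.1. The 5 cohorts (7-day dose, gastrocnemius and quadriceps over time, nascent and total RNA, 3 months) gave 24 comparisons. The fits were tested on simulated data.

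The 7 genes, the partner list and the marker lists were chosen with earlier results of these data known. The text names the 7 genes in every comparison, the called events (at most 6 per gene), and at most 12 partners called in the FVB or dose comparisons, by size of change, of which 1 is not reported here. Dmd exons 71 and 78, Utrn exon 67, Dtna exon 13, the Dag1 splice site and the events of exons joined to it were added after their values were seen. The printed tests of nascent against total RNA did not use pairing. In an alternative, nascent and total libraries of the same number were taken as pairs. The reason was that the deviations of each of the 4 PBS pairs from their group means correlated above 0.1 (0.128 to 0.293). This pairing as a block changed no call of a member gene. Exon sequences and positions came from the GENCODE M21 annotation. Alternatives were another pseudocount, other filters, median rescaling, a logit scale, other minimum differences, a fit of only the groups compared, a replicate block, and leaving out each library.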

Additional observations from a re-analysis of the deposited data

Results flagged for a closer look

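Within groups of 4 to 8 libraries, 140 tests of the 7 genes were made by Dixon's test at its 95% critical value. In 8 of them 1 library lay far from the rest, and chance alone gives about 1 in 20. Utrn stood high at 68.2 TPM in gastrocnemius replicate 2 at 4 days of EEV4-PMO, the library with lymphocyte and fat transcripts. In quadriceps, Utrn also stood high at 25.9 TPM in PBS replicate 2 at 4 days and at 32.3 TPM in replicate 3 at 1 day of EEV4-PMO. Dtna stood low at 91.5 TPM in that same 1-day library and high at 80.2 TPM in replicate 2 at 4 days of EEV4-PMO. Dag1 was high in the latter library as well, at 165 TPM. Dmd stood low at 78.3 TPM in replicate 1 of quadriceps at 4 days of EEV4-PMO, and Dag1 high at 148 TPM in PBS replicate 1 at 3 months.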

How the results depend on the processing

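Over single genes and events, 4000 values kept their side of the threshold, 72 lost and 25 gained a call, and 5 turned sign. Direction was compared only for values called in either setting, so sign changes of uncalled values were not counted. All 5 turned under median rescaling of nascent against total RNA: Utrn (-0.82), Dtna (-0.24), Sgcb (-0.82), Sgcd (-0.32) and Lama2 (-0.82). Counts of called members moved as follows; where no value shows the cause, the cause was not tested. The comparisons of treated groups with each other or with FVB called 1 gene in place of 0 at a TPM of at least 5 and after median rescaling, Dmd in EEV4-PMO at 30 mg/kg against FVB. The quadriceps FVB comparison called 1 gene in place of 0 (Sgcd) when only its groups were fitted. Quadriceps over time called 3 in place of 2 after median rescaling and with a replicate block (Dag1 at 4 days, adjusted p = 0.016 and 0.025) and at a TPM of at least 5 (Sgca at 7 days, adjusted p = 0.044). Nascent RNA after treatment called 1 gene in place of 2 with a pseudocount of 0.1 or a TPM of at least 5, and 0 after median rescaling or with only the groups compared. The 3-month comparison called 2 genes in place of 4 with no filter on TPM and 0 after median rescaling; over all genes its 1037 calls became 5 after rescaling. Of events, gastrocnemius FVB at 7 days called 1 in place of 0 with no minimum difference. It was a mutually exclusive pair of Dag1 exons (chr9:108218013-108218410 and chr9:108253101-108253157) and not the Dag1 splice site. Its difference was 0.0715 (adjusted p = 0.044, limma on linear PSI). EEV4-PMO against PBS called 1 in place of 0 with no minimum difference (Dmd exons 37 and 40). It also called 1 in place of 0, the Dag1 splice site, with only the groups compared. The same site was called without events of a single value, an alternative chosen after seeing the data. Gastrocnemius FVB at 4 days called 0 in place of 1 at a minimum difference of 0.2, on the logit scale and with only the groups compared. Nascent against total RNA called 0 events in place of 7 at a minimum difference of 0.2, since none reached it.

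With the replicate number as a block, gastrocnemius FVB at 7 days called 1 gene in place of 2 (Dmd not called), EEV4-PMO against PBS called 1 in place of 0 (Sgcb), gastrocnemius FVB at 4 days called 0 events in place of 1, and the 3-month comparison called 0 genes in place of 4, with 1 gene called in all. In these comparisons same-numbered libraries did not all deviate together. Beside these, the block moved no count of members by over 1.5 times.

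Leaving out each library in turn gave 0 to 1 genes among the treated groups, 0 to 1 in FVB quadriceps, 1 to 2 in FVB gastrocnemius at 7 days, 2 to 3 in quadriceps over time, 0 to 3 in nascent RNA after treatment, 5 to 5 in nascent against total RNA and 0 to 5 at 3 months. For events it gave 0 to 2 in EEV4-PMO or PMO against PBS, 0 to 2 in FVB gastrocnemius at 4 days, 0 to 1 in nascent RNA after treatment and 4 to 9 in nascent against total RNA. All other counts stayed at 0. The planned test on the 36-exon table gave no value, since no exon in it belongs to the 7 genes. Depth per library and per event is unknown, so the error of a single TPM or PSI could not be set apart from the spread between libraries.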
